A study of Homo sapiens with 8 samples.

Results

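The genes described here encode clotting factors, the inhibitors that limit clotting, proteins that promote or slow the dissolving of clots, and complement proteins with their regulators. They are 35 listed gene symbols looked up in the expression table of the series, and 34 of them were found among its 26716 genes; C9 was not analysed here. The list was split into 10 clotting genes, 6 anticoagulant genes, 3 genes of fibrinolysis and, of 16 listed, 15 complement genes. Poly(A) RNA from HepG2, a human hepatocellular carcinoma line that makes many plasma proteins of the liver, was sequenced as single-end reads of 50 bases in 8 libraries. All cells received a mimic (miR-552-3p or a control, 1 nM) and an siRNA (to importin8 or a control, 30 nM) for 72 h, and each of the 4 combinations had 2 libraries. The group called siIPO8-miR-552-3p received the miR-552-3p mimic and the importin8 siRNA. The group miR-552-3p received the mimic with the control siRNA, siIPO8-NC the importin8 siRNA with the control mimic, and NC both controls. The title of the series places the work in FXR and LXR activity and in sugar and lipid metabolism of the liver. The submitters speak of 2 experiments per group without saying whether these were separate cultures; each p-value below reflects only how far such libraries lie apart, which may be technical.

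As background, clotting proceeds through a cascade of serine protease precursors, made mostly by hepatocytes, that ends in thrombin and fibrin. Antithrombin, heparin cofactor II and the protein C system hold thrombin formation in check, and plasmin dissolves the clot. Complement is a second protease cascade of liver-made plasma proteins, started by antibody, by lectins or by C3 itself, that ends in a membrane pore made of the late components, and regulators such as C1 inhibitor, C4b-binding protein and factor I keep it from running on.

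The mature miR-552-3p is shown first because the mimic carries its sequence. RefSeq (GRCh38.p14) places it at chr1:34669614-34669634 on the minus strand, with 21 bases, and the capitals mark the seed, bases 2 to 8.
miR-552-3p: aACAGGUGacugguuagacaa
A site matching that seed reads CACCTGT in DNA letters. It was found in the longest annotated 3′ UTR (GENCODE v29) of 4 of the 34 genes (11.8%), against 3245 of 19652 coding genes (16.5%), whose 3′ UTRs had a median of 1031 bases against 354 for the 34. The 4 genes are C3 on chromosome 19 (UTR position 133 of 178), F7 on chromosome 13 (1003 of 1673), MBL2 on chromosome 10 (351 of 2757) and PROC on chromosome 2 (139 of 300). The sites are printed with the seed match in capitals.
C3: ctacttgaaacctCACCTGTt
F7: cgtctcctccgcaCACCTGTg
MBL2: catttacaacaaaCACCTGTg
PROC: aacatttactgagCACCTGTt
These letters are a description and do not show that the microRNA acts there. With the mimic and control siRNA, C3 and PROC fell, F7 rose and MBL2 did not pass the test, with values given below.

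Promoters from 250 bases before to 50 after the start, 300 bases each, were read from RefSeq (GRCh38.p14) for 27 of the 34 genes; those of A2M, C1S, C3, C8G, SERPINC1, SERPINF2 and SERPING1 were not used here. Both strands were searched for 5 motifs, and no matches overlapped. The letters of the seed site, CACCTGT, were in 0 of the 27, against 4.11% of 35116 promoters. The HNF1 motif, whose matches are printed below, was in 3 of the 27 (11.1%), against 0.322% of all promoters. CAAAGTCCA, a motif of HNF4, was in 2 (7.41%), against 0.384%. TTGCNNAA (C/EBP) was in 6 (22.2%), against 10.5%, and TTCCNGGAA (STAT) in 2 (7.41%), against 1.15%. HNF1 and HNF4 are liver transcription factors. The 5 promoters that hold their motifs are shown because their genes come from all 4 branches. The highest group mean of each of these 5 genes was in siIPO8-NC, as it was for 17 of the 33 genes tested, but siIPO8-NC and NC did not differ past the test for F10 (log2 fold change 0.05 (adjusted p = 0.66)) and C4BPA (0.20 (adjusted p = 0.094)). The genes also differed in the order of the other groups, with NC lowest for F13B and miR-552-3p lowest for the other 4. Group order was not counted over all genes. Capitals mark the match, which reads as the reverse complement where it lies on the other strand. The HNF1 motif is in F13B (chr1:197067211-197067510, minus strand), PLG (chr6:160701943-160702242, plus) and C4BPA (chr1:207103983-207104282, plus).
F13B: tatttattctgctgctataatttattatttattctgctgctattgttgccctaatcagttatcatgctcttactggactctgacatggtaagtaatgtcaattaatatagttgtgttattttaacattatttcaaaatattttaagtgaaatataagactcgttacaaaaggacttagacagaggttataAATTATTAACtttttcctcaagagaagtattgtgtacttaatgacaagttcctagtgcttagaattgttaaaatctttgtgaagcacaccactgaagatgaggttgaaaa
PLG: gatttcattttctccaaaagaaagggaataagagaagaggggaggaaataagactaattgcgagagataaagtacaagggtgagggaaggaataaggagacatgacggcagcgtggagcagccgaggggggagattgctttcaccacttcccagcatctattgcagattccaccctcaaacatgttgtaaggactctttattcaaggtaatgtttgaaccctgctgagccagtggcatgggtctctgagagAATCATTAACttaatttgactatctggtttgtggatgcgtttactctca
C4BPA: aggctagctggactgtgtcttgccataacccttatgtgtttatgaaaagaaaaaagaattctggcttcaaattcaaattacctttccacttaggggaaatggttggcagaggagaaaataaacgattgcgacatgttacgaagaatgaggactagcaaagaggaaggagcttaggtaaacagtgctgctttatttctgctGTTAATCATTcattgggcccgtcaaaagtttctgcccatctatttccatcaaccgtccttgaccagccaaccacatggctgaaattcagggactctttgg
The HNF4 motif is in F10 (chr13:113122549-113122848, plus) and PROZ (chr13:113158398-113158697, plus), which are neighbours on chromosome 13.
F10: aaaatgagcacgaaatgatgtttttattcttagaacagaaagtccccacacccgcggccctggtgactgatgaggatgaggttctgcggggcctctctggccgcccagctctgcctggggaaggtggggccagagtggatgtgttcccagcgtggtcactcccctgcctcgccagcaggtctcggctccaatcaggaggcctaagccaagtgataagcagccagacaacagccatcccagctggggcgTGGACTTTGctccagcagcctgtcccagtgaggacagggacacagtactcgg
PROZ: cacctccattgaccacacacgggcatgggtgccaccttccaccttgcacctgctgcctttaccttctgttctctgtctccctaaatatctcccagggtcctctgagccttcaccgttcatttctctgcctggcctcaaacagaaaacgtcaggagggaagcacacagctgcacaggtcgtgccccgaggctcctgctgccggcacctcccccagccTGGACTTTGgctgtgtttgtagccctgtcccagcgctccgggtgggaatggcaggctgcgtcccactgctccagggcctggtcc

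Each library held 21608563 to 22102373 expected counts in all, and 17716 genes had enough counts to be tested. IPO8, the gene that the siRNA targets, was at 7.97 ± 0.465 CPM in siIPO8-miR-552-3p, 25 ± 0.541 CPM in miR-552-3p, 11.4 ± 0.0829 CPM in siIPO8-NC and 34.0 ± 0.949 CPM in NC (SD, n = 2 each; CPM are counts scaled to the size of the library). In edgeR the siRNA effect on IPO8 was a log2 fold change of -1.65 (adjusted p = 1.4e-06) with the mimic and -1.57 (adjusted p = 4.5e-07) with the control mimic. The mimic also lowered IPO8, at -0.52 (adjusted p = 0.0022) with importin8 siRNA and -0.44 (adjusted p = 0.00082) with control siRNA. IPO8 level thus differed with the mimic as well as with the siRNA, and libraries of different groups did not overlap. All 12 hepatocyte markers listed were above 1 FPKM in every library. Their summed level was 31608 to 31829 FPKM in siIPO8-miR-552-3p, 21148 to 21909 in miR-552-3p, 30442 to 31824 in siIPO8-NC and 28457 to 31708 in NC. The platelet markers measured (4) were under 0.5 FPKM in every library, as were 5 of 7 macrophage markers (PTPRC, CD163, CSF1R, MARCO and ITGAM), 6 of 9 fibroblast markers and 2 of 6 endothelial markers. The summed macrophage markers nevertheless ran from 42.1 to 44.3 FPKM in siIPO8-miR-552-3p, 59.9 to 65.6 in miR-552-3p, 33.1 to 44.3 in siIPO8-NC and 3.41 to 4.97 in NC. The 5 cholangiocyte markers, with KRT7 under 0.5, summed to 590 to 626, 1302 to 1356, 370 to 371 and 425 to 451 FPKM in the same order of groups. Fibroblast markers summed to 34.3 to 36.1, 49.2 to 51.2, 33.2 to 35.4 and 49.9 to 53.3 FPKM, and endothelial markers to 5.08 to 5.25, 6.61 to 7.59, 6.57 to 6.95 and 11.4 to 12.4 FPKM. Their part in the results below was not tested. In RNA from whole cultures, fewer cells that express a gene and less RNA per cell cannot be told apart.

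The mimic lowered most of these genes in cells with the control siRNA. Of the 33 tested, 5 rose and 22 fell, so that 81.8% were called, against a background of 58.4% of all genes tested; 15.2% of the 33 rose and 66.7% fell, against 28.9 and 29.5% of all genes. Their median log2 fold change was -0.58, against -0.01 over all genes. The genes that rose were F7, F13B, C5, C8G and SERPING1. The largest falls were those of C6, KLKB1, CPB2, F11, SERPINF2 and A2M. A gene was called with an adjusted p under 0.05 in edgeR's quasi-likelihood test with Benjamini-Hochberg adjustment over all genes tested. F9, the protease whose loss causes haemophilia B, had at most 1 count in any library and was not tested. The calls of C8B and C8G were lost without miR-552-3p replicate 1 or without NC replicate 1, and that of C8B also without miR-552-3p replicate 2, at -0.61 to -0.40 for C8B (adjusted p = 0.053 to 0.2) and 0.56 to 0.68 for C8G (adjusted p = 0.071 to 0.15); DESeq2 did not call them either.

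**Figure D1:**
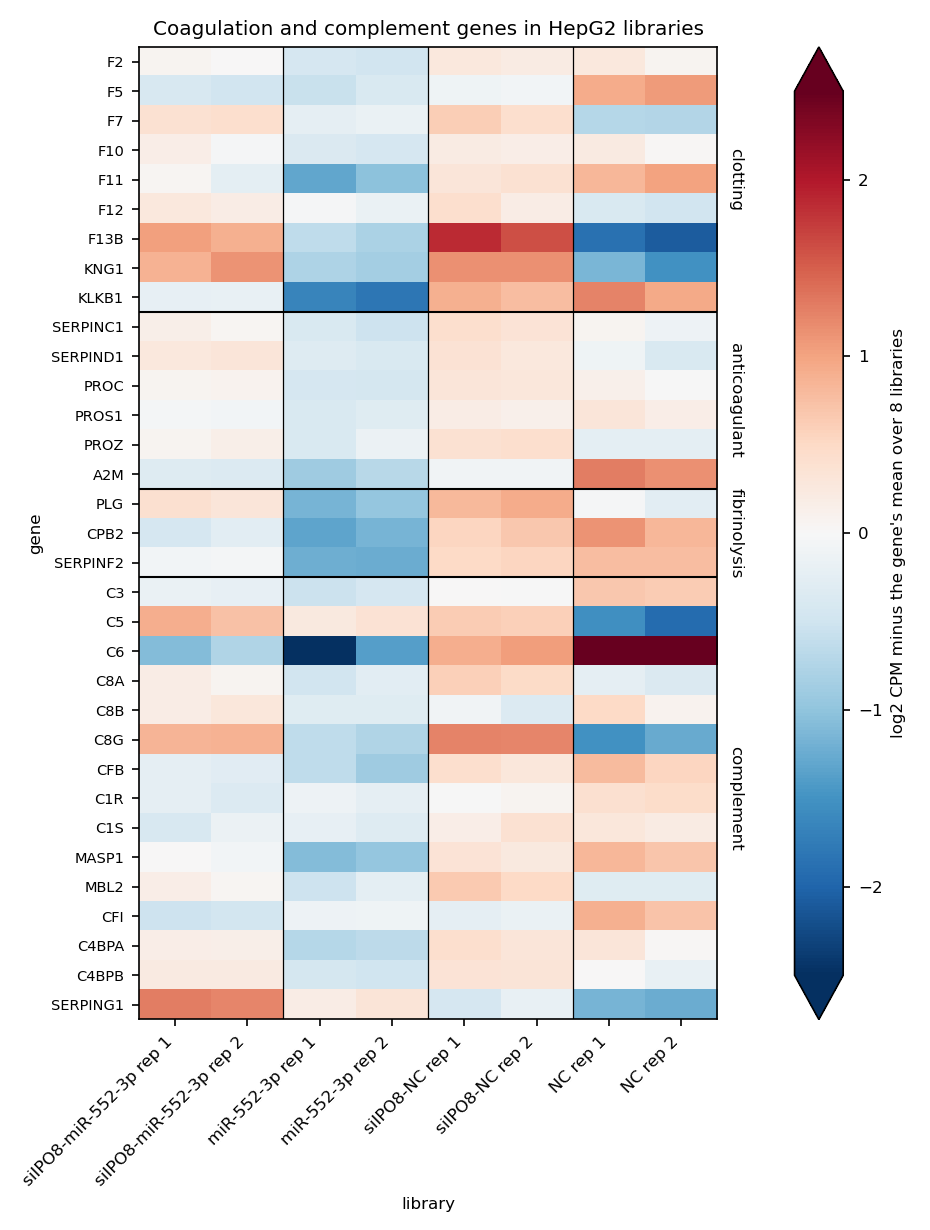
Heat map of log2 CPM, minus the mean of each gene over the 8 libraries, for the 33 genes tested (rows, by branch) in each library (columns, replicates 1 and 2 of each group); the colour scale ends at 2.5 in each direction. The miR-552-3p libraries are at the low end for most genes, with the lowest group mean for 23 of the 33, and the highest mean is in siIPO8-NC for 17 and in NC for 14. The order of group means was not counted over all genes.

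In cells with the importin8 siRNA, the mimic lowered 17 of the 33 genes and raised 1, SERPING1. The share called, 54.5%, compares with 31.7% of all genes, the share that fell, 51.5%, with 16.7%, and the median was -0.29, against -0.00 over all genes. Of all genes called here 47.3% were higher, and 36.7% when libraries were scaled by their totals only. Of the 22 genes that fell with the control siRNA, 14 (63.6%) also fell here, and these 14 are 82.4% of the 17. This overlap was not counted over all genes, so it has no background to be set against. F13B fell here and rose with the control siRNA. The count of falls depends on the libraries: it was 10 without siIPO8-miR-552-3p replicate 1, 8 without siIPO8-miR-552-3p replicate 2, 9 without siIPO8-NC replicate 1 and 10 without siIPO8-NC replicate 2. PLG, CPB2, SERPINF2, CFB and SERPING1 were called in all 16 alternative settings, and KLKB1 in all but DESeq2 (adjusted p = 0.07). SERPINC1, PROC and PROS1 lost their calls without any 1 of those 4 libraries, at -0.31 to -0.22, -0.22 to -0.20 and -0.25 to -0.18 (adjusted p = 0.064 to 0.17, 0.079 to 0.12 and 0.082 to 0.18), with PROC and PROS1 lost in DESeq2 too, as were F13B and C8A. Without siIPO8-miR-552-3p replicate 2 the calls of F5, F11, F13B, C8A, MASP1 and MBL2 were lost as well, without siIPO8-miR-552-3p replicate 1 those of C6, C8A, C1S and CFI, without siIPO8-NC replicate 1 those of F11, F13B, C8A, MASP1 and MBL2, and without siIPO8-NC replicate 2 those of F5, F11, C1S and CFI, at adjusted p = 0.058 to 0.15 over these genes.

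The mimic effects with importin8 siRNA and with control siRNA differed for 21 of the 33 genes (63.6%), against 31.3% of all genes. The difference was positive for 17 (51.5%, against 14.2% of all genes), with a median over the 33 of 0.37 against -0.02 over all genes, and negative for 4, which were F7, F13B, C5 and C8G. For 16 of the 17 the mimic value was below 0 in both settings and nearer to 0 with the importin8 siRNA, and C8B had values of 0.45 with importin8 siRNA and -0.61 with control siRNA. The calls of F2, F10, PROC, PROS1 and C8B were lost without single libraries. They had differences of 0.38 to 0.44, 0.31 to 0.43, 0.21 to 0.28, 0.33 and 0.85 to 1.07 there (adjusted p = 0.053 to 0.083, 0.062 to 0.11, 0.068 to 0.12, 0.062 to 0.065 and 0.055 to 0.13). The libraries were miR-552-3p replicate 2, siIPO8-miR-552-3p replicate 1 and both of siIPO8-NC for F2, miR-552-3p replicate 1 and siIPO8-NC replicate 2 for PROS1, each of the 8 but siIPO8-miR-552-3p replicate 2 and NC replicate 2 for F10, each but NC replicate 2 for PROC, and both of miR-552-3p, siIPO8-miR-552-3p replicate 2, siIPO8-NC replicate 2 and NC replicate 1 for C8B. DESeq2 did not call F10, PROC and C8B either. C8G lost its call in DESeq2 (-1.04; adjusted p = 0.14).

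**Figure D2:**
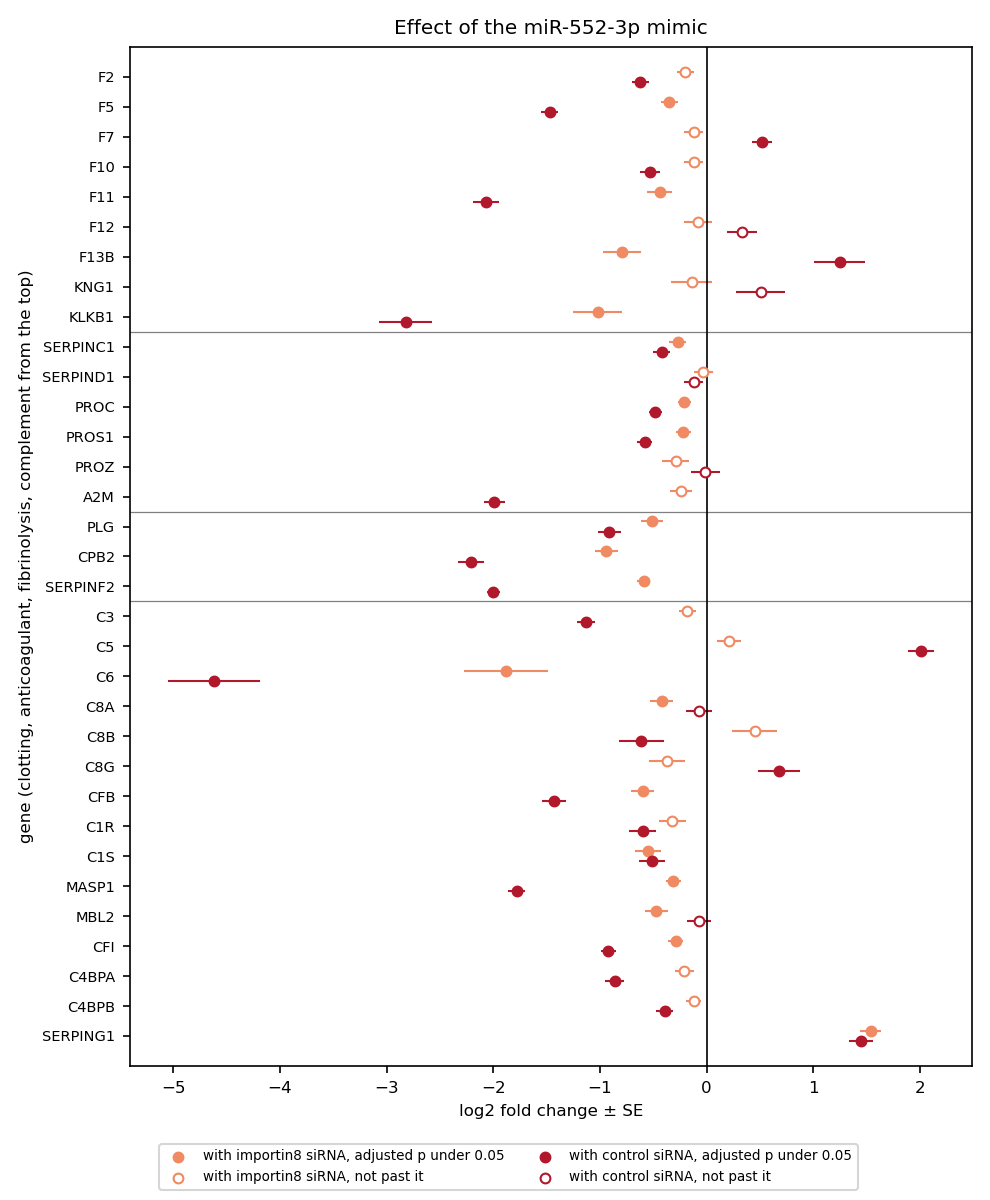
Log2 fold change of the mimic over the control mimic for each gene, with its SE, in cells with importin8 siRNA (orange) and with control siRNA (red); filled points passed an adjusted p of 0.05 and open points did not. Most red points lie further to the left than the orange ones, with C6 at -1.88 and -4.62, while SERPING1 is at 1.54 and 1.45.

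The importin8 siRNA, in cells with the control mimic, raised 15 of the 33 genes and lowered 11, so 78.8% were called, against 47.0% of all genes (25.4% higher and 21.6% lower); the median was 0.07, against -0.00. In cells with the miR-552-3p mimic it raised 25 and lowered 1, CFI. The share called was again 78.8%, against 33.5% of all genes, the share that rose was 75.8%, against 17.3%, and the median was 0.53, against -0.01. The siRNA raised 13 genes in both settings, which are 52.0% of the 25 and 86.7% of the 15. It moved 7 genes in opposite directions, up with the mimic and down with the control mimic: F11, CPB2, SERPINF2, A2M, C3, CFB and MASP1. For each of these 7 the difference between the mimic effects, which is also the difference between the siRNA effects, passed the test. The 7 were picked for called siRNA effects of opposite sign, so this largely follows from the choice and is no separate support. F11 and MASP1 kept both calls in all 16 alternative settings. The 13 and the 7 were not set against the same counts over all genes. The comparison with control mimic shares its NC libraries with the comparison of the mimic with control siRNA. The comparison in mimic cells shares its miR-552-3p libraries with it, so low values there add to both the falls and these rises. Neither set of siRNA values is independent of the mimic comparison.

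Single libraries decided some of the siRNA calls. With the control mimic, those of CPB2 and CFB were lost without siIPO8-NC replicate 1 or NC replicate 1 and that of SERPINF2 without siIPO8-NC replicate 1, which left 7 genes lower in place of 11. CFB and C1R were also lost without siIPO8-NC replicate 2, C1R without any 1 of the 4 libraries compared, and PROC without siIPO8-NC replicate 1 or NC replicate 2. Their adjusted p-values were then 0.092 to 0.13 for CPB2, 0.07 for SERPINF2, 0.057 to 0.18 for CFB, 0.057 to 0.25 for C1R and 0.056 to 0.058 for PROC. With the mimic, PROS1, A2M, C3, C5, C8A and MBL2 were not called without miR-552-3p replicate 1, and C3, C5, C8A and MBL2 not without siIPO8-miR-552-3p replicate 1, nor C3 without siIPO8-miR-552-3p replicate 2. The adjusted p-values were then 0.062, 0.066, 0.062 to 0.15, 0.05 to 0.06, 0.065 to 0.071 and 0.067 to 0.069 for these 6 genes in turn. DESeq2 did not call C1R with the control mimic or C8A with the mimic either.

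**Figure D3:**
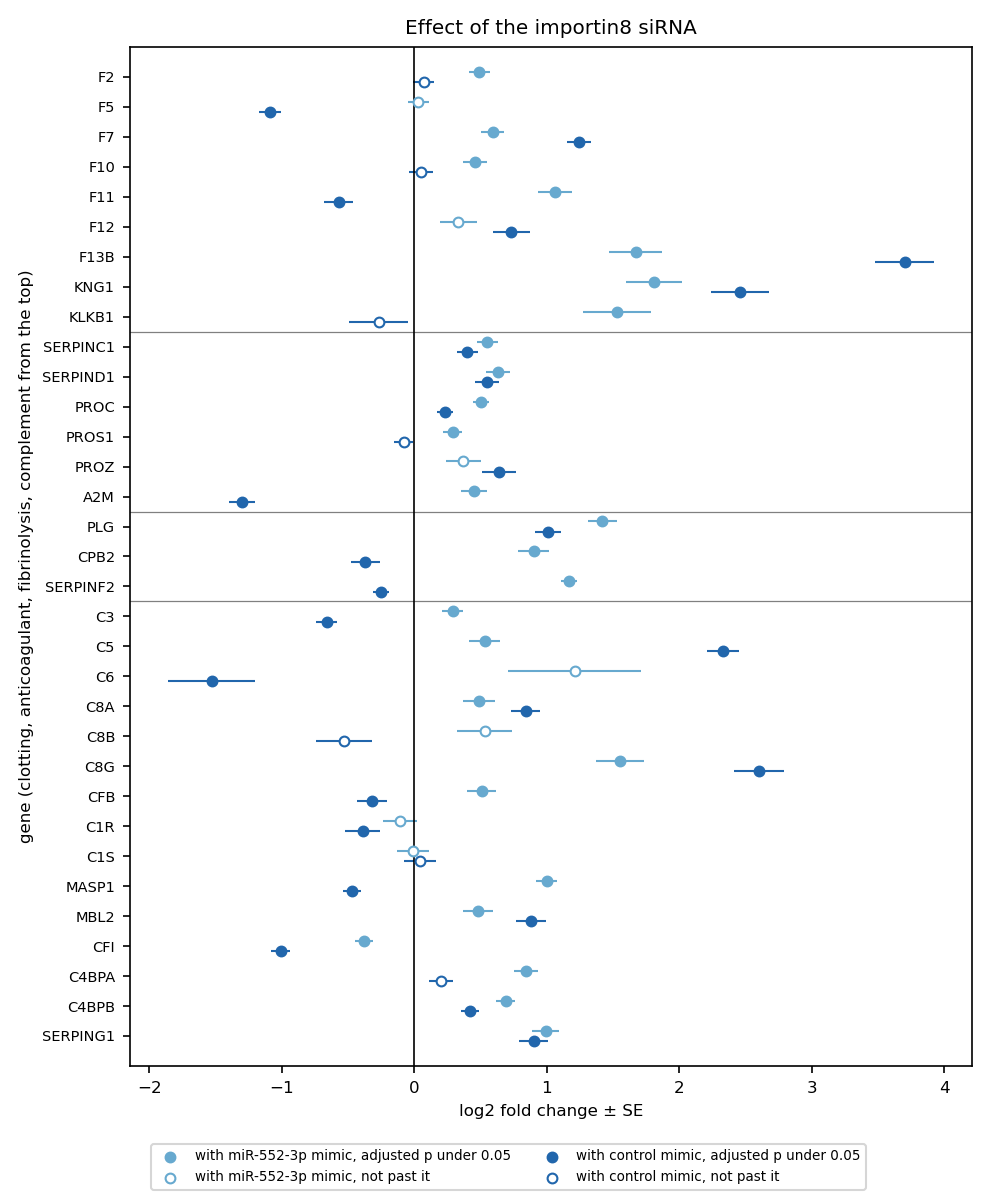
Log2 fold change of the importin8 siRNA over the control siRNA for each gene, with its SE, in cells with the miR-552-3p mimic (light blue) and with the control mimic (dark blue); filled points passed an adjusted p of 0.05 and open points did not. With the mimic 25 genes lie to the right past the test and only CFI to the left, while with the control mimic values run from -1.53 for C6 to 3.70 for F13B.

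By branch, the counts of the mimic effect with control siRNA were 2 higher and 5 lower of 9 clotting genes tested, 0 and 4 of 6 anticoagulant genes, 0 and 3 of 3 fibrinolysis genes, and 3 and 10 of 15 complement genes. The medians were -0.53, -0.45, -2.0 and -0.60, against -0.01 over all genes. The shares that fell were 55.6, 66.7, 100 and 66.7%, against 29.5% of all genes. The share that rose was at most 22.2%, that of the clotting genes, so it was below the 28.9% of all genes in every branch. With the importin8 siRNA, the mimic lowered 4 clotting, 3 anticoagulant, 3 fibrinolysis and 7 complement genes, with medians of -0.20, -0.23, -0.59 and -0.31. These are 44.4, 50.0, 100 and 46.7% of the branches, against 16.7% of all genes, whose median was -0.00. In the siRNA effect with control mimic 4 clotting genes rose and 2 fell, 4 anticoagulant genes rose and 1 fell, 1 fibrinolysis gene rose and 2 fell, and 6 complement genes rose and 6 fell, with medians of 0.07, 0.32, -0.25 and 0.04. The shares that rose were 44.4, 66.7, 33.3 and 40.0%, against 25.4% of all genes. Those that fell were 22.2, 16.7, 66.7 and 40.0%, against 21.6%. For clotting and anticoagulant genes the falls were thus near or below the background. With the mimic, the siRNA raised 7 of 9 clotting, 5 of 6 anticoagulant, 3 of 3 fibrinolysis and 10 of 15 complement genes, with medians of 0.59, 0.48, 1.17 and 0.53. These are 77.8, 83.3, 100 and 66.7%, against 17.3% of all genes, whose median was -0.01. No test was made between branches. The count of 4 clotting genes that fell with mimic and importin8 siRNA was 1 to 2 without siIPO8-miR-552-3p replicate 2 or either siIPO8-NC library, the 3 anticoagulant genes were 0 without any 1 of the 4 libraries compared, and the 7 complement genes were 3 to 4 without either siIPO8-miR-552-3p library or siIPO8-NC replicate 1.

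Summed over the 34 genes, levels were 9845 ± 113 CPM in siIPO8-miR-552-3p, 7244 ± 438 CPM in miR-552-3p, 11495 ± 81.3 CPM in siIPO8-NC and 20866 ± 1094 CPM in NC (SD, n = 2 each). A2M and C3 made up most of that sum. Without them the sum was 2997 ± 55.3 CPM in siIPO8-miR-552-3p, 2036 ± 5.53 CPM in miR-552-3p, 3505 ± 70.6 CPM in siIPO8-NC and 3547 ± 201 CPM in NC. The clotting genes summed to 986 ± 33.4 CPM in siIPO8-miR-552-3p, 736 ± 1.23 CPM in miR-552-3p, 1166 ± 22.2 CPM in siIPO8-NC and 1383 ± 31.5 CPM in NC, so NC was highest and miR-552-3p lowest. The anticoagulant genes summed to 5360 ± 2.22 CPM in siIPO8-miR-552-3p, 3869 ± 316 CPM in miR-552-3p, 6259 ± 19.7 CPM in siIPO8-NC and 13830 ± 896 CPM in NC, with NC highest. Without A2M, which was left out after its share of the sum was seen, they summed to 839 ± 4.41 CPM in siIPO8-miR-552-3p, 564 ± 10.5 CPM in miR-552-3p, 904 ± 38.3 CPM in siIPO8-NC and 674 ± 73.7 CPM in NC, where siIPO8-NC was highest. Fibrinolysis genes summed to 350 ± 3.01 CPM in siIPO8-miR-552-3p, 157 ± 2.12 CPM in miR-552-3p, 539 ± 15.6 CPM in siIPO8-NC and 618 ± 17.9 CPM in NC. Most of this was SERPINF2, a gene for a plasmin inhibitor, with means of 127 CPM in miR-552-3p and 508 CPM in NC. Complement genes summed to 3149 ± 85.1 CPM in siIPO8-miR-552-3p, 2482 ± 118 CPM in miR-552-3p, 3531 ± 54.9 CPM in siIPO8-NC and 5035 ± 149 CPM in NC, with NC highest, and without C3 to 822 ± 29.3 CPM in siIPO8-miR-552-3p, 579 ± 12.7 CPM in miR-552-3p, 896 ± 25.8 CPM in siIPO8-NC and 872 ± 77.7 CPM in NC, where siIPO8-NC and NC overlapped. The order of the groups in these 2 branches thus turned on A2M and C3. Per length, the most abundant gene in NC was A2M, with 924 FPKM in siIPO8-miR-552-3p, 688 FPKM in miR-552-3p, 1151 FPKM in siIPO8-NC and 2867 FPKM in NC. In NC it was followed by C3 (839 FPKM), F2 (384 FPKM), SERPINF2 (230 FPKM) and SERPIND1 (179 FPKM), while KNG1 (0.465 FPKM) and F13B (0.305 FPKM) were the lowest of the genes tested.

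The contact system starts the intrinsic branch of clotting. F11, the precursor of the protease that activates factor IX, was at 51.0 and 41.2 CPM in siIPO8-miR-552-3p, 20.1 and 24.1 CPM in miR-552-3p, 61.0 and 63.9 CPM in siIPO8-NC, and 86.9 and 98.4 CPM in NC. It was lowest in both miR-552-3p libraries and highest in both NC libraries, with no overlap between groups. The mimic effect was -0.44 (adjusted p = 0.021) with importin8 siRNA and -2.07 (adjusted p = 9e-07) with control siRNA, a difference of 1.63 (SE 0.17; adjusted p = 0.00014). KLKB1, which encodes plasma prekallikrein and lies next to F11 on chromosome 4 (186208979 to 186258471, plus strand; F11 at 186265945 to 186288806, a gap of 7473 bases), followed the same order at a low level: 1.88 and 1.90 CPM in siIPO8-miR-552-3p, 0.687 and 0.613 CPM in miR-552-3p, 3.99 and 3.69 CPM in siIPO8-NC, and 5.09 and 4.16 CPM in NC. The mimic effect on KLKB1 was -1.02 (adjusted p = 0.0071) with importin8 siRNA and -2.82 (adjusted p = 6.1e-06) with control siRNA. KLKB1 overlaps CYP4V2 on the same strand, and reads may have been divided between these genes. The siRNA effects on this pair were 1.06 (adjusted p = 0.00025) for F11 and 1.53 (adjusted p = 0.0015) for KLKB1 with the mimic, and -0.57 (adjusted p = 0.0031) for F11 and -0.27 (adjusted p = 0.34) for KLKB1 with the control mimic.

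KNG1 encodes high molecular weight kininogen, the cofactor of prekallikrein and source of bradykinin. It was at 5.29 and 6.31 CPM in siIPO8-miR-552-3p, 1.69 and 1.60 CPM in miR-552-3p, 6.41 and 6.38 CPM in siIPO8-NC, and 1.31 and 1.01 CPM in NC. The importin8 siRNA raised it by 1.81 with the mimic (SE 0.21; adjusted p = 0.00013) and by 2.46 with the control mimic (SE 0.22; adjusted p = 1.1e-05), while the mimic effects did not pass, at -0.14 (adjusted p = 0.63) with importin8 siRNA and 0.51 (adjusted p = 0.088) with control siRNA. F12, whose protease opens the contact pathway, was at 9.33 and 8.83 CPM in siIPO8-miR-552-3p, 7.55 and 6.88 CPM in miR-552-3p, 10.3 and 8.81 CPM in siIPO8-NC, and 5.94 and 5.57 CPM in NC. F12 rose by 0.73 (SE 0.14; adjusted p = 0.0015) with the siRNA in control-mimic cells and was at 0.33 (adjusted p = 0.091) in mimic cells, and neither mimic effect passed. Its FPKM did not keep the order of its CPM, with 7.79 in siIPO8-miR-552-3p and 8.81 in miR-552-3p, and the gene overlaps GRK6 on the other strand, so its level is uncertain.

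F7 encodes the protease that starts clotting together with tissue factor, and was at 27.8 and 28.6 CPM in siIPO8-miR-552-3p, 18.3 and 19.1 CPM in miR-552-3p, 32.8 and 28.6 CPM in siIPO8-NC, and 13.1 and 12.9 CPM in NC. NC was lowest, and all 3 other groups lay above it. The mimic effect on F7 was -0.12 (SE 0.09; adjusted p = 0.32) with importin8 siRNA, while F7 rose by 0.52 (SE 0.09; adjusted p = 0.00078) with control siRNA; the difference of -0.65 (adjusted p = 0.0036) passed. F10, which lies 2132 bases downstream of F7 on chromosome 13 and encodes the protease that makes thrombin, was at 57.5 and 50.2 CPM in siIPO8-miR-552-3p, 39.7 and 38.4 CPM in miR-552-3p, 59.5 and 57.7 CPM in siIPO8-NC, and 60.3 and 52.7 CPM in NC. Of its groups, miR-552-3p was lower than the other 3, and NC overlapped with both groups that received the siRNA. F10 fell by 0.53 (SE 0.09; adjusted p = 0.00046) with the mimic and control siRNA and rose by 0.46 (SE 0.09; adjusted p = 0.0027) with the siRNA in mimic cells. The third gene of that row, PROZ, 9124 bases further on, encodes a cofactor for inhibition of factor Xa and was at 7.69 and 8.07 CPM in siIPO8-miR-552-3p, 5.63 and 6.55 CPM in miR-552-3p, 9.46 and 9.76 CPM in siIPO8-NC, and 6.17 and 6.14 CPM in NC. PROZ rose by 0.64 (SE 0.13; adjusted p = 0.0026) with the siRNA and control mimic, and its other 3 values were between -0.29 and 0.37 and did not pass. Thus the 3 neighbours had mimic effects of 0.52, -0.53 and -0.01 with control siRNA.

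F2 encodes prothrombin, and was at 665 and 643 CPM in siIPO8-miR-552-3p, 478 and 457 CPM in miR-552-3p, 770 and 738 CPM in siIPO8-NC, and 764 and 670 CPM in NC. It was lowest in the miR-552-3p libraries, and siIPO8-NC and NC overlapped. F2 fell by 0.62 (SE 0.08; adjusted p = 9.2e-05) with the mimic and control siRNA, had -0.20 (SE 0.08; adjusted p = 0.081) with importin8 siRNA, and rose by 0.49 (SE 0.08; adjusted p = 0.0012) with the siRNA in mimic cells. The value with importin8 siRNA passed in 6 other settings, among them DESeq2 (adjusted p = 0.028) and the fits without either NC library (adjusted p = 0.015 each). F5, the cofactor of factor Xa, was at 186 and 177 CPM in siIPO8-miR-552-3p, 168 and 188 CPM in miR-552-3p, 227 and 235 CPM in siIPO8-NC, and 468 and 516 CPM in NC. Both NC libraries were above all 6 others, and siIPO8-miR-552-3p and miR-552-3p overlapped. F5 was lower than in NC both with the mimic alone, by a log2 fold change of -1.47 (SE 0.08; adjusted p = 1.5e-07), and with the siRNA alone, by -1.09 (SE 0.08; adjusted p = 2.9e-06); with both agents it was at -0.35 (adjusted p = 0.0074) against siIPO8-NC and 0.03 (adjusted p = 0.83) against miR-552-3p.

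F13B encodes the carrier subunit of the factor that crosslinks fibrin. It was at 5.67 and 5.12 CPM in siIPO8-miR-552-3p, 1.79 and 1.60 CPM in miR-552-3p, 10.2 and 8.45 CPM in siIPO8-NC, and 0.765 and 0.657 CPM in NC. Its 4 groups did not overlap, and siIPO8-NC was highest. F13B rose by 3.70 (SE 0.22; adjusted p = 8.6e-07) with the siRNA and control mimic, the largest siRNA value among the 33 genes, and rose by 1.67 (SE 0.20; adjusted p = 0.00015) with the mimic. The mimic effect was -0.79 (SE 0.18; adjusted p = 0.0079) with importin8 siRNA and 1.25 (SE 0.24; adjusted p = 0.0013) with control siRNA, opposite in sign, with a difference of -2.03 (SE 0.30; adjusted p = 0.00065). The fall with importin8 siRNA was not called in DESeq2 or without siIPO8-miR-552-3p replicate 2 or siIPO8-NC replicate 1, at -0.78 to -0.65 (adjusted p = 0.068 to 0.085).

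**Figure D4:**
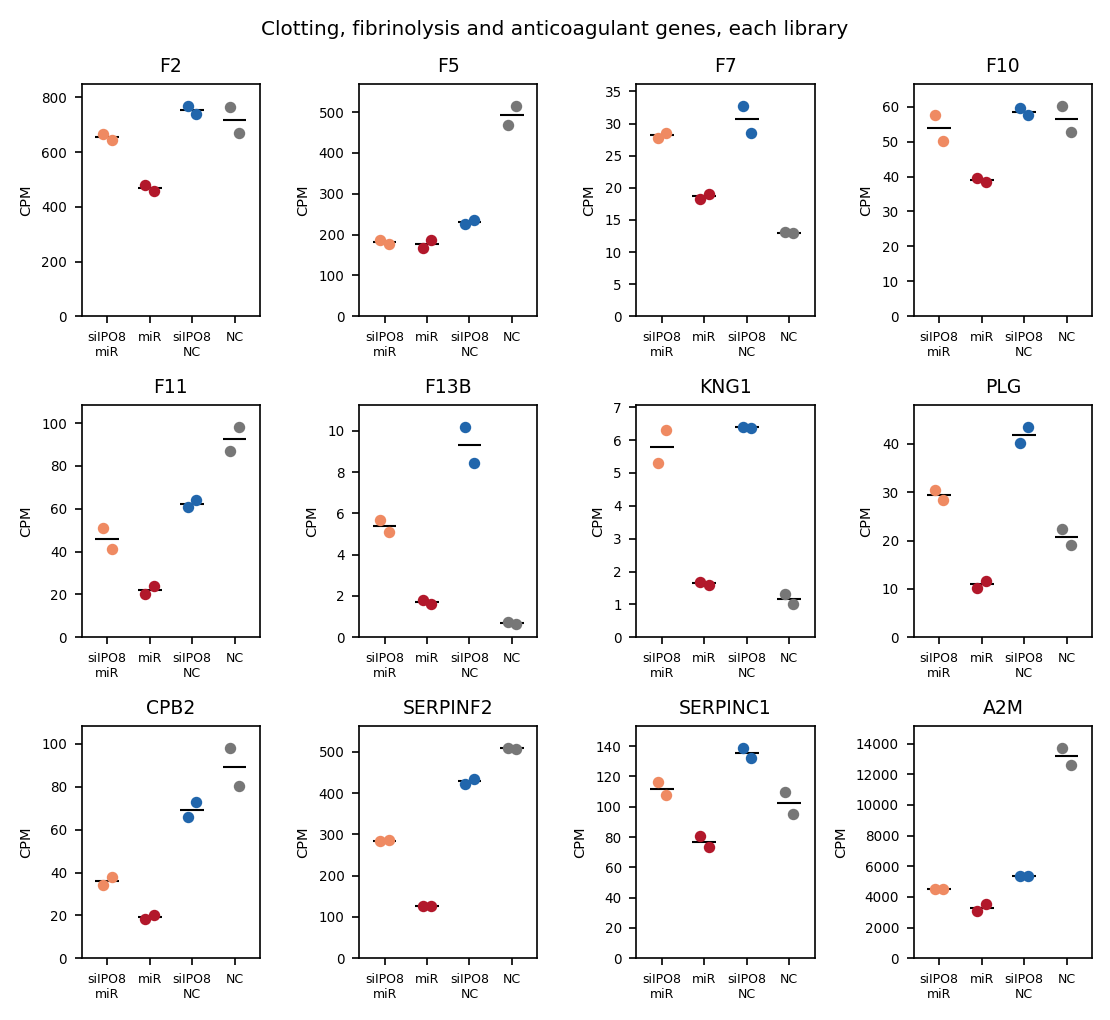
CPM in each library (points, replicates 1 and 2) with the group mean (line) for 12 clotting, fibrinolysis and anticoagulant genes; siIPO8 miR, miR, siIPO8 NC and NC are the groups siIPO8-miR-552-3p, miR-552-3p, siIPO8-NC and NC, and each axis starts at 0. F5 and A2M are highest in NC, at 492 and 13156 CPM on average, while F13B, KNG1 and PLG are highest in siIPO8-NC, at 9.32, 6.40 and 41.9 CPM.

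All 3 fibrinolysis genes fell with the mimic, with either siRNA. PLG encodes plasminogen, and was at 30.4 and 28.5 CPM in siIPO8-miR-552-3p, 10.3 and 11.7 CPM in miR-552-3p, 40.2 and 43.6 CPM in siIPO8-NC, and 22.4 and 19.1 CPM in NC. Both siIPO8-NC libraries were highest and both miR-552-3p libraries lowest. PLG fell by 0.51 (SE 0.10; adjusted p = 0.0032) with the mimic and importin8 siRNA and fell by 0.91 (SE 0.11; adjusted p = 4.7e-05) with control siRNA, and its difference did not pass (0.40 (adjusted p = 0.062)). The siRNA raised it by 1.42 with the mimic and by 1.01 with the control mimic (adjusted p = 8.7e-06 and 2.3e-05). SERPINF2, which encodes the main plasmin inhibitor, was at 283 and 286 CPM in siIPO8-miR-552-3p, 127 and 126 CPM in miR-552-3p, 422 and 434 CPM in siIPO8-NC, and 510 and 506 CPM in NC. SERPINF2 fell by 0.59 (SE 0.06; adjusted p = 8e-05) with the mimic and importin8 siRNA and fell by 2.0 (SE 0.06; adjusted p = 4.5e-09) with control siRNA. CPB2 encodes a carboxypeptidase that slows fibrinolysis, and was at 34.1 and 38.0 CPM in siIPO8-miR-552-3p, 18.2 and 20.4 CPM in miR-552-3p, 65.7 and 72.7 CPM in siIPO8-NC, and 98.3 and 80.4 CPM in NC. CPB2 fell by 0.94 (SE 0.11; adjusted p = 0.00023) with the mimic and importin8 siRNA and fell by 2.21 (SE 0.12; adjusted p = 2.4e-07) with control siRNA. SERPINF2 and CPB2, both brakes on plasmin, differed from PLG in the siRNA effect with control mimic, where they had -0.25 (adjusted p = 0.0066) and -0.37 (adjusted p = 0.017). The differences between mimic effects were 1.41 (SE 0.09; adjusted p = 2.9e-06) and 1.27 (SE 0.16; adjusted p = 0.00032).

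Of the anticoagulant genes, SERPINC1 encodes antithrombin and was at 116 and 108 CPM in siIPO8-miR-552-3p, 80.6 and 73.1 CPM in miR-552-3p, 139 and 132 CPM in siIPO8-NC, and 110 and 95.5 CPM in NC. SERPIND1 encodes heparin cofactor II, a second thrombin inhibitor, and was at 551 and 564 CPM in siIPO8-miR-552-3p, 365 and 355 CPM in miR-552-3p, 593 and 550 CPM in siIPO8-NC, and 427 and 354 CPM in NC. Both were highest in siIPO8-NC on average, and SERPIND1 overlaps PI4KA on the other strand. SERPINC1 fell by 0.42 (SE 0.08; adjusted p = 0.0016) with the mimic and control siRNA, and SERPIND1 had -0.12 (SE 0.09; adjusted p = 0.3); without NC replicate 2 that value was -0.25 and passed (adjusted p = 0.012). The siRNA raised SERPINC1 by 0.55 with the mimic and 0.40 with the control mimic (adjusted p = 0.00069 and 0.0024), and SERPIND1 by 0.63 and 0.55 (adjusted p = 0.00052 and 0.00073). For both genes the mimic effects did not differ past the test, at 0.14 (adjusted p = 0.4) and 0.08 (adjusted p = 0.69).

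PROC encodes protein C, which inactivates factors V and VIII, and was at 95.7 and 96.8 CPM in siIPO8-miR-552-3p, 68.4 and 67.7 CPM in miR-552-3p, 112 and 111 CPM in siIPO8-NC, and 99.6 and 90.8 CPM in NC. PROS1 encodes its cofactor protein S, and was at 65.1 and 64.6 CPM in siIPO8-miR-552-3p, 51.7 and 54.3 CPM in miR-552-3p, 77.0 and 73.7 CPM in siIPO8-NC, and 83.3 and 75.6 CPM in NC. Both were lowest in the miR-552-3p libraries, without overlap with another group. PROC fell by 0.48 (SE 0.06; adjusted p = 8.4e-05) and PROS1 fell by 0.58 (SE 0.07; adjusted p = 3.7e-05) with the mimic and control siRNA. With the siRNA in mimic cells PROC rose by 0.50 (SE 0.06; adjusted p = 0.0002) and PROS1 rose by 0.29 (SE 0.07; adjusted p = 0.0083), and with the control mimic PROC was at 0.23 (adjusted p = 0.011) and PROS1 at -0.08 (adjusted p = 0.38).

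A2M encodes alpha-2-macroglobulin, a broad protease inhibitor that also binds thrombin. It was at 4522 and 4519 CPM in siIPO8-miR-552-3p, 3074 and 3536 CPM in miR-552-3p, 5343 and 5369 CPM in siIPO8-NC, and 13737 and 12575 CPM in NC. Both NC libraries stood above all 6 others, and no groups overlapped. A2M fell by 1.99 (SE 0.10; adjusted p = 1.1e-07) with the mimic and control siRNA and fell by 1.30 (SE 0.10; adjusted p = 4.8e-06) with the siRNA and control mimic. With both agents it was at -0.24 (adjusted p = 0.09) against siIPO8-NC and at 0.45 (adjusted p = 0.006) against miR-552-3p, and the difference between the mimic effects was 1.75 (SE 0.14; adjusted p = 1.5e-05). The value of -0.24 passed in 5 other settings, among them DESeq2 (adjusted p = 0.0054) and the fits without either NC library (adjusted p = 0.025 to 0.028). A2M overlaps A2M-AS1 on the other strand.

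The complement genes begin with those that start the cascade. C1R and C1S encode the proteases of the first component and lie 9166 bases apart on chromosome 12, on opposite strands. C1R was at 6.01 and 5.60 CPM in siIPO8-miR-552-3p, 6.45 and 6.08 CPM in miR-552-3p, 7.04 and 7.42 CPM in siIPO8-NC, and 9.27 and 9.69 CPM in NC. C1S was at 11.3 and 13.6 CPM in siIPO8-miR-552-3p, 13 and 12 CPM in miR-552-3p, 16.9 and 19.6 CPM in siIPO8-NC, and 18.3 and 17.3 CPM in NC. In both genes the mimic libraries were below the libraries with control mimic. C1R fell by 0.60 (SE 0.13; adjusted p = 0.0026) and C1S fell by 0.51 (SE 0.12; adjusted p = 0.0043) with the mimic and control siRNA; with importin8 siRNA C1S fell by 0.55 (SE 0.12; adjusted p = 0.0061) and C1R had -0.32 (SE 0.13; adjusted p = 0.097). The mimic effects on these genes did not differ past the test, at 0.28 (adjusted p = 0.3) and -0.04 (adjusted p = 0.88). C1S overlaps EMG1 on the same strand, and its reads may have been divided too. C1R was lost in DESeq2 (adjusted p = 0.051), overlaps C1RL in the annotation, and had 1.46 FPKM in miR-552-3p and 1.48 FPKM in NC, so its level is uncertain.

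In the lectin branch, MBL2 encodes mannose-binding lectin and was at 25.1 and 22.9 CPM in siIPO8-miR-552-3p, 15.5 and 18.9 CPM in miR-552-3p, 35.2 and 31.3 CPM in siIPO8-NC, and 18.1 and 18.1 CPM in NC. MASP1 encodes a protease that works with it, and was at 159 and 150 CPM in siIPO8-miR-552-3p, 74.5 and 80.5 CPM in miR-552-3p, 199 and 185 CPM in siIPO8-NC, and 278 and 254 CPM in NC. The lectin and the protease differed: MBL2 was highest in siIPO8-NC, and miR-552-3p and NC overlapped, while MASP1 was highest in NC with no overlap. The mimic effect was -0.47 (adjusted p = 0.0074) for MBL2 and -0.31 (adjusted p = 0.009) for MASP1 with importin8 siRNA, and -0.07 (adjusted p = 0.61) and -1.78 (SE 0.08; adjusted p = 3e-08) with control siRNA. The siRNA with control mimic gave 0.88 (adjusted p = 0.0001) for MBL2 and -0.47 (adjusted p = 0.00045) for MASP1. Only MASP1 of the 2 had mimic effects that differed past the test (1.47 (SE 0.10; adjusted p = 6.9e-06)), and MBL2 was at -0.40 (adjusted p = 0.076), which passed without miR-552-3p replicate 1 at -0.54 (adjusted p = 0.028).

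C3 is the component on which all branches converge, and was at 2367 and 2288 CPM in siIPO8-miR-552-3p, 1829 and 1978 CPM in miR-552-3p, 2655 and 2614 CPM in siIPO8-NC, and 4214 and 4112 CPM in NC. CFB encodes factor B, the protease of the alternative branch, and was at 81.6 and 78.0 CPM in siIPO8-miR-552-3p, 61.1 and 51.2 CPM in miR-552-3p, 127 and 116 CPM in siIPO8-NC, and 165 and 138 CPM in NC. NC was highest and miR-552-3p lowest for both. C3 fell by 1.13 (SE 0.08; adjusted p = 1.3e-06) and CFB fell by 1.43 (SE 0.11; adjusted p = 4e-06) with the mimic and control siRNA. With importin8 siRNA CFB fell by 0.60 (SE 0.11; adjusted p = 0.0028) and C3 had -0.18 (SE 0.08; adjusted p = 0.13), which passed in DESeq2 (adjusted p = 0.018) and in 4 other settings. The siRNA gave 0.29 (adjusted p = 0.02) and 0.51 (adjusted p = 0.0069) with the mimic, and -0.66 (adjusted p = 0.0001) and -0.32 (adjusted p = 0.033) with the control mimic. CFB overlaps C2 on the same strand, and reads may have been divided between these genes.

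The late components did not move as one. C5, which is cut to start the pore, was at 286 and 255 CPM in siIPO8-miR-552-3p, 180 and 195 CPM in miR-552-3p, 238 and 230 CPM in siIPO8-NC, and 52.9 and 40.0 CPM in NC. NC was lowest, far below the other 3 groups. C5 rose by 2.01 (SE 0.12; adjusted p = 1.2e-06) with the mimic and control siRNA and rose by 2.33 (SE 0.12; adjusted p = 1.4e-06) with the siRNA and control mimic, and was at 0.21 (adjusted p = 0.2) with both against siIPO8-NC, a value that passed in the fits without either NC library (adjusted p = 0.03 to 0.039). The difference between the mimic effects was -1.80 (SE 0.17; adjusted p = 7.7e-05). C6, the next protein of the pore, was at 0.866 and 1.09 CPM in siIPO8-miR-552-3p, 0.137 and 0.707 CPM in miR-552-3p, 3.45 and 3.78 CPM in siIPO8-NC, and 10.4 and 10.4 CPM in NC. It was highest in NC, at no more than 10.4 CPM, and rested on 3.00 and 15.19 expected counts in the miR-552-3p libraries. C6 fell by 1.88 (SE 0.39; adjusted p = 0.0062) with the mimic and importin8 siRNA and fell by 4.62 (SE 0.43; adjusted p = 1.5e-05) with control siRNA. The last value was -3.87 without miR-552-3p replicate 1 and -6.18 without replicate 2, and the difference of 2.74 (SE 0.60; adjusted p = 0.0078) was 1.99 and 4.31 there. The siRNA effect on C6 in mimic cells, 1.21 (SE 0.50; adjusted p = 0.099), was 2.79 without miR-552-3p replicate 2 (adjusted p = 0.0026).

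C8 is built from 3 chains. C8A was at 14.2 and 13.2 CPM in siIPO8-miR-552-3p, 9.02 and 10.5 CPM in miR-552-3p, 19.0 and 17.6 CPM in siIPO8-NC, and 10.7 and 9.73 CPM in NC. C8B, its neighbour on chromosome 1 at a gap of 10988 bases on the other strand, was at 4.28 and 4.60 CPM in siIPO8-miR-552-3p, 3.07 and 3.06 CPM in miR-552-3p, 3.54 and 2.97 CPM in siIPO8-NC, and 5.36 and 4.03 CPM in NC. The alpha chain was highest in siIPO8-NC, where the beta chain was not. C8G, on chromosome 9, was at 6.06 and 6.07 CPM in siIPO8-miR-552-3p, 2.15 and 1.98 CPM in miR-552-3p, 7.85 and 7.78 CPM in siIPO8-NC, and 1.17 and 1.40 CPM in NC. C8G rose with the siRNA, by 1.55 with the mimic (SE 0.18; adjusted p = 0.00013) and 2.60 with the control mimic (SE 0.19; adjusted p = 3.2e-06), and C8A by 0.49 and 0.84 (adjusted p = 0.0086 and 0.00019). C8B had 0.53 (adjusted p = 0.078) with the mimic and -0.53 (adjusted p = 0.061) with the control mimic. The mimic effects with control siRNA were -0.07 (adjusted p = 0.64) for C8A, -0.61 (adjusted p = 0.028) for C8B and 0.68 (adjusted p = 0.015) for C8G.

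**Figure D5:**
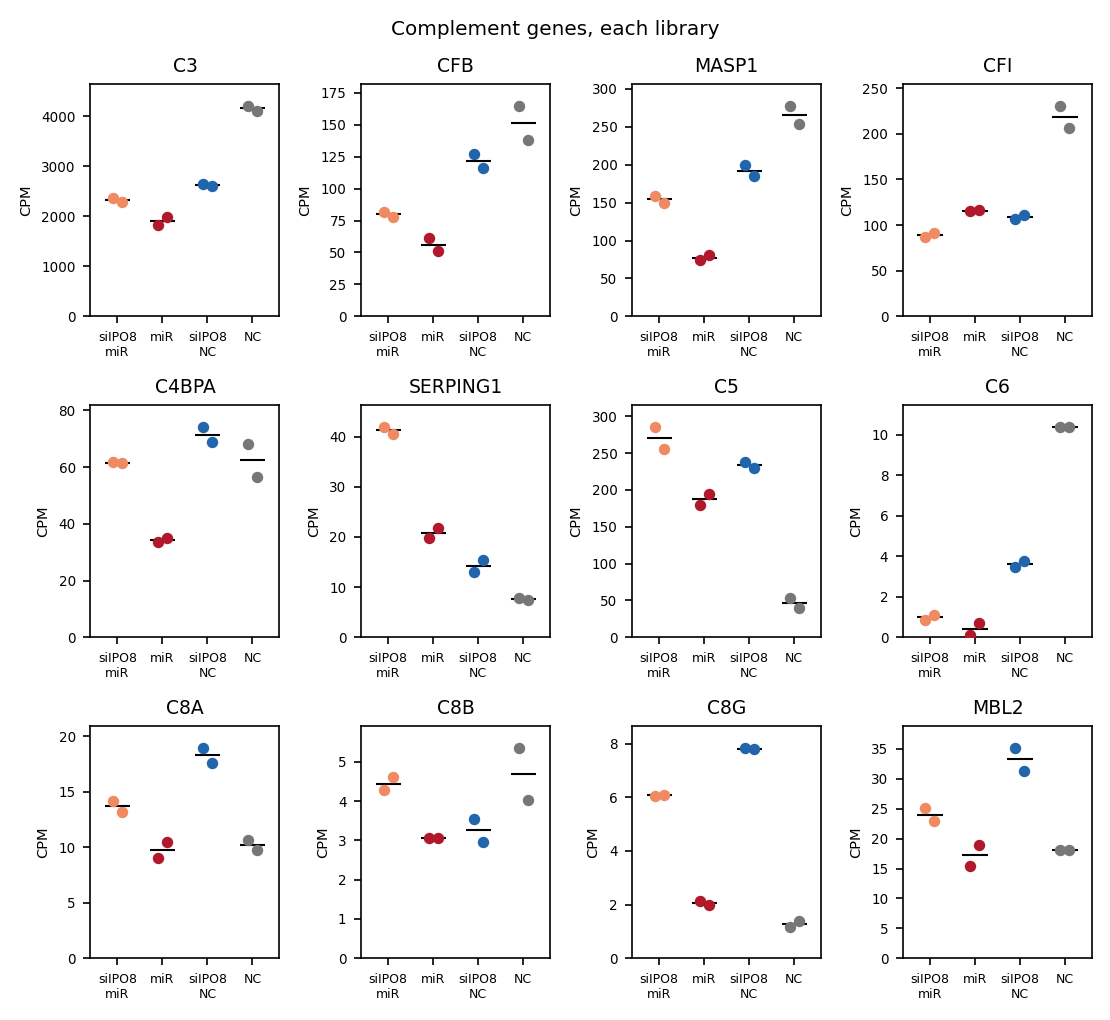
CPM in each library (points, replicates 1 and 2) with the group mean (line) for 12 complement genes, with groups named as siIPO8 miR (siIPO8-miR-552-3p), miR (miR-552-3p), siIPO8 NC (siIPO8-NC) and NC; each axis starts at 0. C3 and C6 are highest in NC, at 4163 and 10.4 CPM on average, C5 is lowest in NC at 46.4 CPM, and SERPING1 is highest in siIPO8-miR-552-3p at 41.2 CPM.

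Among the regulators, CFI encodes factor I, the protease that inactivates C3b and C4b, and was at 86.9 and 91.0 CPM in siIPO8-miR-552-3p, 115 and 116 CPM in miR-552-3p, 107 and 111 CPM in siIPO8-NC, and 231 and 206 CPM in NC. NC was highest, and siIPO8-miR-552-3p lowest. CFI fell by 0.29 (SE 0.07; adjusted p = 0.01) with the mimic and importin8 siRNA and fell by 0.92 (SE 0.07; adjusted p = 1.4e-06) with control siRNA. It was the only gene of the 33 that fell with the siRNA in both settings, at -0.38 (SE 0.07; adjusted p = 0.0023) with the mimic and -1.01 (SE 0.07; adjusted p = 2.1e-06) with the control mimic.

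C4BPA and C4BPB encode the chains of C4b-binding protein, the cofactor of factor I, and lie 4268 bases apart on chromosome 1 on the plus strand. C4BPA was at 61.9 and 61.3 CPM in siIPO8-miR-552-3p, 33.6 and 35.1 CPM in miR-552-3p, 74.3 and 68.7 CPM in siIPO8-NC, and 68.3 and 56.5 CPM in NC. C4BPB was at 57.6 and 58.0 CPM in siIPO8-miR-552-3p, 36.5 and 35 CPM in miR-552-3p, 63.2 and 62.3 CPM in siIPO8-NC, and 50.0 and 43.8 CPM in NC. Both were lowest in the miR-552-3p libraries, with no overlap. C4BPA fell by 0.86 (SE 0.09; adjusted p = 2.1e-05) and C4BPB fell by 0.39 (SE 0.08; adjusted p = 0.0013) with the mimic and control siRNA, and with the siRNA in mimic cells C4BPA rose by 0.84 (SE 0.09; adjusted p = 8.2e-05) and C4BPB rose by 0.69 (SE 0.07; adjusted p = 7.7e-05). With the control mimic only C4BPB passed, at 0.42 (adjusted p = 0.00097), while C4BPA was at 0.20 (adjusted p = 0.094), and passed without NC replicate 1 at 0.33 (adjusted p = 0.0052).

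SERPING1 encodes C1 inhibitor, which blocks C1r, C1s and also kallikrein and factor XIIa. It was at 42.0 and 40.5 CPM in siIPO8-miR-552-3p, 19.7 and 21.7 CPM in miR-552-3p, 13 and 15.4 CPM in siIPO8-NC, and 7.79 and 7.41 CPM in NC. Its groups did not overlap, and the level was highest with both agents. SERPING1 rose by 1.54 (SE 0.10; adjusted p = 6e-06) with the mimic and importin8 siRNA and rose by 1.45 (SE 0.11; adjusted p = 1.6e-06) with control siRNA. It rose by 0.99 (SE 0.10; adjusted p = 4.1e-05) with the siRNA and mimic and rose by 0.90 (SE 0.11; adjusted p = 0.0001) with the siRNA and control mimic. It is the only gene of the 33 called in the higher direction in all 4 comparisons, and the difference between its mimic effects was 0.10 (SE 0.15; adjusted p = 0.68).

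Other genes of these pathways were described by a wider list, of which 28 of 30 clotting and 16 of 33 complement genes were tested. With the mimic and control siRNA, 18 of the 28 other clotting genes rose and 8 fell (64.3 and 28.6%), with a median of 1.35. Of the other complement genes 4 rose and 8 fell (25 and 50.0%), with a median of -0.88. These shares compare with 28.9 and 29.5% of all genes, so the share of clotting genes that fell and that of complement genes that rose were near the background. With importin8 siRNA the mimic raised 9 and lowered 3 of the clotting genes (32.1 and 10.7%; median 0.34) and raised 3 and lowered 4 of the complement genes (18.8 and 25%; median -0.16), against 15.0 and 16.7% of all genes. With the mimic, the siRNA raised 9 and lowered 9 clotting genes (32.1% each; median -0.04) and raised 4 and lowered 3 complement genes (25 and 18.8%; median -0.08), against 17.3 and 16.2% of all genes. With the control mimic it raised 13 and lowered 7 clotting genes (46.4 and 25%; median 0.17) and raised 5 and lowered 7 complement genes (31.2 and 43.8%; median -0.33), against 25.4 and 21.6% of all genes. The differences between mimic effects were positive for 7 and negative for 11 of the 28 (25 and 39.3%), and positive for 6 and negative for 3 of the 16 (37.5 and 18.8%), against 14.2 and 17.2% of all genes.

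F2RL1, a protease-activated receptor, was at 122 and 118 CPM in siIPO8-miR-552-3p, 238 and 234 CPM in miR-552-3p, 38.3 and 32.7 CPM in siIPO8-NC, and 9.81 and 7.14 CPM in NC. It rose by 1.76 with the mimic and importin8 siRNA and rose by 4.80 with control siRNA (adjusted p = 6.9e-06 and 4.4e-09). PLAU, the urokinase-type activator of plasminogen, was at 1.54 and 1.19 CPM in siIPO8-miR-552-3p, 10.2 and 10.1 CPM in miR-552-3p, 0.359 and 0.809 CPM in siIPO8-NC, and 26.1 and 30.0 CPM in NC. With the siRNA PLAU fell by 2.89 in mimic cells and fell by 5.57 in control-mimic cells (adjusted p = 8.6e-06 and 1.2e-07). TFPI2, an inhibitor of plasmin and of the tissue factor complex, was at 0.721 and 1.28 CPM in siIPO8-miR-552-3p, 28.4 and 26.8 CPM in miR-552-3p, 0.0449 and 0.0899 CPM in siIPO8-NC, and 0.630 and 0.438 CPM in NC. It rose by 5.68 with the mimic and control siRNA (adjusted p = 3.3e-08). SERPINE2, an inhibitor of thrombin and plasminogen activators, was at 66.1 and 67.3 CPM in siIPO8-miR-552-3p, 175 and 167 CPM in miR-552-3p, 22.4 and 20.4 CPM in siIPO8-NC, and 13.5 and 13.1 CPM in NC. SERPINE2 rose by 1.64 with the mimic and importin8 siRNA and rose by 3.68 with control siRNA (adjusted p = 5.8e-07 and 5.9e-10). ANXA2, a surface receptor for plasminogen and its activator, was at 157 and 161 CPM in siIPO8-miR-552-3p, 311 and 270 CPM in miR-552-3p, 90.3 and 81.6 CPM in siIPO8-NC, and 22.6 and 16.9 CPM in NC, and its mimic effects differed by -2.99 (SE 0.18; adjusted p = 6.9e-06). Both genes were highest in miR-552-3p and lowest in NC, with no overlap between groups. The fibrinogen chain genes FGA, FGB and FGG rose by 2.64, 3.25 and 1.47 with the mimic and control siRNA, while F2, F5 and F10 fell. GGCX, whose enzyme carboxylates prothrombin, factors VII and X and proteins C, S and Z, was named after its values were seen. It was at 119 and 125 CPM in siIPO8-miR-552-3p, 77.2 and 78.3 CPM in miR-552-3p, 159 and 172 CPM in siIPO8-NC, and 259 and 262 CPM in NC, and fell by 1.75 with the mimic and control siRNA (adjusted p = 1.2e-08).

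Among the other complement genes C5AR1, the receptor of the C5 fragment C5a, was at 30.2 and 32.3 CPM in siIPO8-miR-552-3p, 37.7 and 34.1 CPM in miR-552-3p, 1.75 and 2.11 CPM in siIPO8-NC, and 0.0450 and 0.219 CPM in NC. C7, which joins C5 and C6 in the pore, was at 0.625 and 0.427 CPM in siIPO8-miR-552-3p, 0.641 and 0.707 CPM in miR-552-3p, 1.12 and 0.944 CPM in siIPO8-NC, and 23.3 and 27.6 CPM in NC. Thus C6 and C7 were both highest in NC while C5 and its receptor were lowest there. CD55 and CD59 encode membrane proteins that shield cells from complement. CD55 was at 69.1 and 60.1 CPM in siIPO8-miR-552-3p, 107 and 99.9 CPM in miR-552-3p, 31.4 and 25.7 CPM in siIPO8-NC, and 12 and 9.03 CPM in NC, and CD59 at 87.5 and 90.5 CPM in siIPO8-miR-552-3p, 150 and 147 CPM in miR-552-3p, 99.4 and 96.1 CPM in siIPO8-NC, and 284 and 278 CPM in NC. These 2 moved apart with the mimic and control siRNA, where CD55 rose by 3.30 and CD59 fell by 0.92 (adjusted p = 2.5e-07 and 4e-07). CPN1 and CPN2 encode the subunits of carboxypeptidase N, which trims the fragments C3a and C5a. CPN1, the catalytic subunit, was at 24.7 and 24.3 CPM in siIPO8-miR-552-3p, 32.5 and 32.2 CPM in miR-552-3p, 26.1 and 21.9 CPM in siIPO8-NC, and 10.2 and 7.23 CPM in NC, and CPN2 at 72.4 and 72.2 CPM in siIPO8-miR-552-3p, 30.1 and 30.6 CPM in miR-552-3p, 109 and 109 CPM in siIPO8-NC, and 65.5 and 73.4 CPM in NC. With the mimic and control siRNA CPN1 rose by 1.89 and CPN2 fell to 0.437 times its level in NC (adjusted p = 3.1e-06 and 2.6e-07). With the siRNA in mimic cells CPN2 rose by 1.25 (SE 0.07; adjusted p = 1.6e-06), the largest change among the other complement genes there, and C1RL, a C1r-like protease gene that overlaps C1R, rose by 0.57 (SE 0.08; adjusted p = 0.00056). HRG, HABP2, PROCR, PLAUR, C5AR2 and COLEC11 were also among the called genes with the largest changes, and were at no more than 8.33 CPM, the level of PROCR in miR-552-3p replicate 1, in any library.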

How the data were processed

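Poly(A) RNA libraries of HepG2 cells were put in their groups by sample title, and table columns were matched to titles by their abbreviations, with every column read. The deposited table holds expected counts and a second value per gene and library. The second value is headed only as expression in the file headers, and it was read from its size as FPKM as deposited. It did not follow the counts in every gene. For C6 in siIPO8-miR-552-3p it was 1.17 at 17.91 expected counts in replicate 1 and 0.33 at 22.94 in replicate 2. The submitters' processing notes name HISAT2 2.0.4, Bowtie2 2.2.5, RSEM 1.2.8 and GRCh38.p12, with no roles, and strand use is not given there or elsewhere in the sources. The authors' expected counts split shared reads between genes: 25 of the 34 genes had a count that was not whole in some library, to a tolerance of 1e-06.

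Counts were rounded, filtered with filterByExpr (17716 of 26716 genes kept), scaled by TMM (factors 0.961 to 1.06) and fitted in edgeR 4.0.16 (quasi-likelihood, robust, R 4.3.3) with a mean per group over all 8 libraries. The contrasts were the mimic with each siRNA, the siRNA with each mimic, and the difference between the mimic effects. A call is a p under 0.05 after Benjamini-Hochberg adjustment across the tested genes. Each SE is approximate, being the size of the log2 fold change divided by the root of F. CPM use the TMM library sizes; 1 count was 0.0438 to 0.0481 CPM, and this depth limits genes such as F9, C6 and KLKB1. The fit was tested on simulated data. Both libraries of a group were kept as samples, since their counts were further apart than sampling would give (chi-square over its degrees of freedom from 4.30 to 9.80). Alternatives were DESeq2 1.42.0, limma-voom 3.58.1, RLE, upper quartile and no scaling factors, no filter, a replicate block, only the 4 libraries compared, and leaving out each library. The members and lists were chosen with earlier results of these data known. The rule named every member, with values per library for those called in any contrast with at least 10 CPM in a group, the others by value, and up to 4 called genes of each wider list and contrast with the largest change, of which 6 under 10 CPM in every library are named only. Gene positions are those of GENCODE v29 (GRCh38).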

Additional observations from a re-analysis of the deposited data

Results flagged for a closer look

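For 21 of the 33 genes (63.6%) the mimic effects with importin8 siRNA and with control siRNA differed, against 31.3% of all genes. The difference itself was tested (edgeR, adjusted p under 0.05). Calls of F2, F10, PROC, PROS1 and C8B were lost without single libraries, and those of F10, PROC, C8B and C8G in DESeq2. Each value below is the log2 effect with importin8 siRNA minus that with control siRNA.

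Among the clotting genes the difference was 0.41 for F2, 1.12 for F5, -0.65 for F7, 0.41 for F10, 1.63 for F11, -2.03 for F13B and 1.80 for KLKB1. It was 1.27 for CPB2 and 1.41 for SERPINF2, which slow fibrinolysis, and 0.27 for PROC, 0.37 for PROS1 and 1.75 for A2M among the anticoagulant genes. Among the complement components it was 0.95 for C3, -1.80 for C5, 2.74 for C6, 1.06 for C8B, -1.05 for C8G, 0.83 for CFB and 1.47 for MASP1. For the regulators CFI and C4BPA it was 0.63 and 0.65. Of the 33 genes tested, only F13B was called in opposite directions by the mimic, at -0.79 with importin8 siRNA and 1.25 with control siRNA. The call of -0.79 was lost in DESeq2 and without siIPO8-miR-552-3p replicate 2 or siIPO8-NC replicate 1.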

How the results depend on the processing

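Leaving out a library moved the counts of genes called more than any other choice. With the mimic and importin8 siRNA the count that fell, 17, ran from 8 to 21, and by branch from 1 to 5 for clotting (4), 0 to 4 for anticoagulant (3) and 3 to 9 for complement genes (7); the count that rose, 1, all of it complement, ran from 1 to 2. With the siRNA and control mimic the count that fell ran from 7 to 11 (11), and from 0 to 2 for fibrinolysis (2). With the siRNA and mimic the count that rose ran from 3 to 5 for anticoagulant (5) and 6 to 11 for complement genes (10). Positive differences between mimic effects ran from 3 to 5 for clotting (5) and 1 to 3 for anticoagulant genes (3). With only the 4 libraries compared, 2 genes rose with the mimic and importin8 siRNA, both of complement, in place of 1, and 5 of the wider clotting list fell in place of 3. With library totals only, 5 of that list and 7 of the wider complement list fell in place of 3 and 4; alternatives on the wider lists were chosen after seeing the data. In DESeq2, 1 complement gene had a negative difference in place of 2. The cause was not tested.

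No called value changed sign: 1768 stayed called and 99 did not pass. Of values not called, 34 passed elsewhere, some without a library and others with another tool, scaling, a replicate block or only the libraries compared. A further 22 changed sign, mostly when a library was left out. Over the fits without single libraries, the mimic effect with control siRNA ran from -0.25 to 0.02 for SERPIND1, -0.12 to 0.10 for PROZ, -0.17 to 0.04 for C8A and -0.21 to 0.07 for MBL2. With importin8 siRNA it ran from -0.18 to 0.04 for F12 and -0.09 to 0.02 for SERPIND1. The siRNA effect with control mimic ran from -0.02 to 0.16 for F2, -0.04 to 0.14 for F10 and -0.07 to 0.15 for C1S, and with the mimic from -0.05 to 0.11 for F5 and -0.14 to 0.12 for C1S. The difference ran from -0.05 to 0.21 for SERPIND1, -0.18 to 0.08 for C1S and -0.03 to 0.22 for SERPING1. With upper quartile scaling the siRNA effect with control mimic was -0.01 for F10 and -0.03 for C1S, and the difference was 0.01 for C1S; with no filter the siRNA effect on C1S with the mimic was 0.00.

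Replicate numbers did not pair the samples (correlations of deviations from -0.00 to 0.09). A replicate block gave 5 higher and 22 lower, 1 and 18, 15 and 11, 25 and 1, and 17 and 4 genes in the order of the mimic with control and importin8 siRNA, the siRNA with control mimic and mimic, and the difference; F2 with mimic and importin8 siRNA (-0.20) passed at adjusted p = 0.038. With 2 libraries a group, genes under about 1 CPM, such as C6 in miR-552-3p, are measured least precisely.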
